A study of Mus musculus with 8 samples.

Results

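The genes described here are the type 2 vomeronasal receptor (V2R) genes numbered Vmn2r28 to Vmn2r80, chosen by symbol alone: the word Vmn2r followed by a whole number from 28 to 80, with pseudogene entries left out. They were 52 of the 27532 genes in the expression table and 52 of its 124 numbered Vmn2r genes. They were read as 3 runs, Vmn2r28 to Vmn2r56 with 29 members, Vmn2r57 to Vmn2r64 with 7, and Vmn2r65 to Vmn2r80 with 16. Vmn2r64 was not analysed here. In the GENCODE M21 annotation of GRCm38 all 52 were protein-coding genes, and 51 lay on chromosome 7. The first run covered chr7:5477255-12735004, with all 29 members on the minus strand. The second covered chr7:41395945-42933822, with 2 members on the plus strand and 5 on the minus strand. The third covered chr7:84935565-87044941, with 4 members on the plus strand and 11 on the minus strand. Vmn2r80 was the exception, annotated on chromosome 10 (chr10:79148769-79195012, plus strand), so the third run is also given without it.

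V2R proteins are G protein-coupled receptors with a large extracellular domain that binds peptide and protein cues in mice. They are made by sensory neurons of the basal layer of the vomeronasal epithelium, which signal through the G protein subunit encoded by Gnao1. A basal neuron typically uses a single variable V2R gene together with a co-receptor of the Vmn2r1 to Vmn2r7 family, so the RNA of each variable gene in whole tissue comes from a small set of cells. Tex15 is best known in the male germ line, where it is required for meiosis and for the silencing of transposons.

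RNA sequencing had been carried out on whole vomeronasal organs of 8 adult mice, 4 heterozygous for Tex15 (Tex15Het) and 4 Tex15 knockouts (Tex15KO). The heterozygous animals were 1 male aged 11.4 weeks (replicate 1) and 3 females aged 14.6 weeks (replicate 2) and 11.9 weeks (replicates 3 and 4). The knockout animals were 1 female (replicate 1) and 3 males, aged 11.9 weeks except replicate 4 at 12.1 weeks. Heterozygous replicates 1 and 2 bore animal numbers of an earlier series than the other heterozygous and all knockout animals. This series was not in the model. The controls therefore carried 1 mutant copy of Tex15, and wild-type mice were not part of the comparison. The strain and the design of the Tex15 allele were not given in the sources used here. Each library came from a different animal by its label, so the spread within a group is between animals.

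Expression was deposited as TPM, a transcript abundance scaled by the gene lengths the authors used, so a comparison of levels between genes rests on those lengths. Recovered depth was 17895839 to 26446733 reads per library, with 28829 to 57000 reads in the 52 members in heterozygous libraries and 6057 to 12432 in knockout libraries. Tex15 itself was at 2.27 to 2.81 TPM in heterozygotes and 0.87 to 1.23 TPM in knockout libraries, a log2 fold change of −1.22 that limma did not call (adjusted p = 0.794). All 15 listed markers of basal neurons were expressed, with summed levels of 2108 to 4775 TPM in heterozygotes against 2105 to 3667 TPM in knockouts, and 0 of the 15 were called. Vmn2r1 to Vmn2r7 made up 86.6 to 248 TPM of this in heterozygotes and 118 to 177 TPM in knockouts. Most of the sum came from the other markers, B2m among them, and it does not measure the share of basal neurons. None of the tested markers was called for apical (5), mature (3) or immature neurons (3), progenitors (4), supporting cells (3) or glands (4). Some of these sums spread widely between heterozygotes: 103 to 995 TPM for mature neurons, 799 to 3187 for supporting cells and 33497 to 147376 for glands. Knockout sums were 608 to 812, 785 to 1358 and 77295 to 143145 TPM. The lack of calls therefore does not show that cell composition was equal. The 4 main olfactory neuron markers summed to 295 to 726 TPM in heterozygotes and 350 to 891 TPM in knockouts, and 0 of them were called. Over all 20305 genes tested, limma called 119 genes (0.586%), 76 lower and 43 higher in knockout libraries. After scaling each library by its median ratio, 127 were lower and 28 higher. With sex in the model, leaving out knockout replicate 1 sets knockout males against heterozygous replicate 1 alone. Leaving out heterozygous replicate 1 sets knockout replicate 1 alone against heterozygous females. Calls in these fits therefore rest on a single animal of 1 genotype. Fits leaving out 1 library that kept both sexes in each genotype gave 59 (without knockout replicate 2) to 131 lower (without heterozygous replicate 2), with 128 without heterozygous replicate 4. They gave 44 (without knockout replicate 2) to 126 higher (without heterozygous replicate 4), with 71 to 78 higher without heterozygous replicate 2 or 3 or knockout replicate 4.

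Most of Vmn2r28 to Vmn2r56 was called lower in Tex15 knockout tissue, and few members of the other runs were. Of 29 members of the first run, 22 fell and 0 rose (limma, adjusted p under 0.05). In the second run 0 of 5 tested members were called, and in the third 1 of 14. A member not called may still differ: all 5 tested members of the second run and 12 of 14 in the third lay below the median gene. Among all genes tested 0.374% were called lower, against 75.9% in the first run and 7.1% in the third. The median log2 fold change, knockout minus heterozygous and relative to the median tested gene, was −2.75 in the first run, −0.99 in the second and −1.11 in the third. Over fits leaving out 1 library that kept both sexes in each genotype, 20 to 25 members of the first run fell, against 0.289% to 0.641% of all genes tested. Fewer fell without knockout replicate 1, the only female knockout (median −2.63), or heterozygous replicate 1 (median −2.65). In those fits 1 genotype rests on a single animal of the sex compared. At an unadjusted p under 0.05, limma had 28 members lower in the first run, 2 in the second and 7 in the third, against 1.46% of all genes tested. Limma-voom on recovered reads called 1 member of the second run lower, Vmn2r63, against 0.455% of the genes it tested. Because the tissue was bulk, fewer cells using a gene and less RNA per cell cannot be told apart. Differences between the runs were described, not tested.

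Summed over the run, Vmn2r28 to Vmn2r56 stood at 354, 210, 565 and 413 TPM in heterozygous replicates 1 to 4 and at 49.8, 70.5, 74.1 and 90.9 TPM in knockout replicates 1 to 4. The highest knockout library was below the lowest heterozygous library, and the means of 386 ± 147 and 71.3 ± 16.9 TPM (SD, n = 4) were 5.41-fold apart. The separation was present within each sex: the male heterozygous animal was at 354 TPM against 70.5 to 90.9 in knockout males, and the female knockout was at 49.8 against 210 to 565 in heterozygous females. The second run summed to 8.56, 6.4, 16.6 and 12.2 TPM in heterozygotes and 3.87, 5.73, 5.43 and 6.96 TPM in knockout libraries. The third run summed to 45.1, 24.5, 64.3 and 50.5 TPM in heterozygotes and 21.8, 34, 34 and 36.1 TPM in knockout libraries. In both of these runs the groups overlapped.

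The spread between heterozygous animals was much smaller when each run was taken as a percentage of the library's V2R TPM, summed over all numbered Vmn2r genes. Vmn2r28 to Vmn2r56 then made up 40.8% ± 0.834 in heterozygotes and 9.56% ± 0.771 in knockouts (SD, n = 4). Vmn2r57 to Vmn2r64 held 1.16% ± 0.109 and 0.737% ± 0.0553. Vmn2r65 to Vmn2r80 held 4.9% ± 0.316 and 4.22% ± 0.122. On this scale the groups did not overlap in any of the 3 runs, and the distance between them was widest in the first. The co-receptor genes Vmn2r1 to Vmn2r7, which are part of the denominator, gave 0 calls among 7 tested, with sums of 86.6 to 248 TPM in heterozygotes and 118 to 177 TPM in knockouts.

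**Figure D1:**
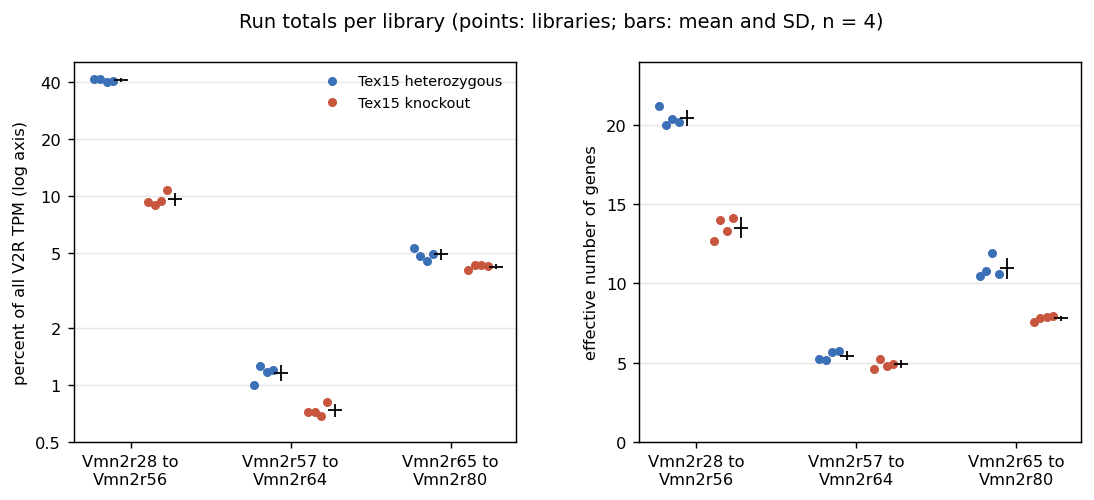
Left, percentage of all V2R TPM held by each run on a log axis; right, the effective number of genes in the run (the exponential of the Shannon entropy of its TPM shares). Points are the 4 libraries of each genotype, with mean and SD beside them: the first run held 39.8% to 41.6% in heterozygotes and 8.89% to 10.7% in knockouts.

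Relative to the other runs, the first run was lower in every knockout library than in any heterozygous library. The log2 ratio of its summed TPM to that of the third run was 2.97, 3.10, 3.14 and 3.03 in heterozygous libraries and 1.19, 1.05, 1.12 and 1.33 in knockout libraries. To the second run the ratio was 5.37, 5.04, 5.09 and 5.08 against 3.68, 3.62, 3.77 and 3.71. Both ratios separated the genotypes without overlap and varied little within a genotype. The ratio of the second run to the third, −2.08 ± 0.21 in heterozygous and −2.52 ± 0.12 in the knockout libraries (SD, n = 4), overlapped between genotypes.

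At 0.5 TPM or more, 28 to 29 members of the first run were detected in heterozygous libraries and 18 to 22 in knockout libraries. In the second run 4 to 6 and 4 to 5 members were detected, and in the third 11 to 13 and 8 to 9. The effective number of genes, which falls as fewer genes hold more of a run's TPM, was 20.5 ± 0.517 in heterozygotes and 13.5 ± 0.649 in knockouts in the first run (mean ± SD, n = 4). This difference of −6.95 became −1.66 among the 15 members with at least 50% of their sequence windows found in no other gene. Those 15 leave out Vmn2r39 and Vmn2r43, which together held 24% of the run's TPM in heterozygotes and 44.9% in knockouts. How ambiguous reads between close copies bear on the difference was not tested. In the third run the effective number was 11 ± 0.671 and 7.8 ± 0.148, and neither run overlapped. In the second run it was 5.45 ± 0.281 and 4.89 ± 0.254, with overlap.

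**Figure D2:**
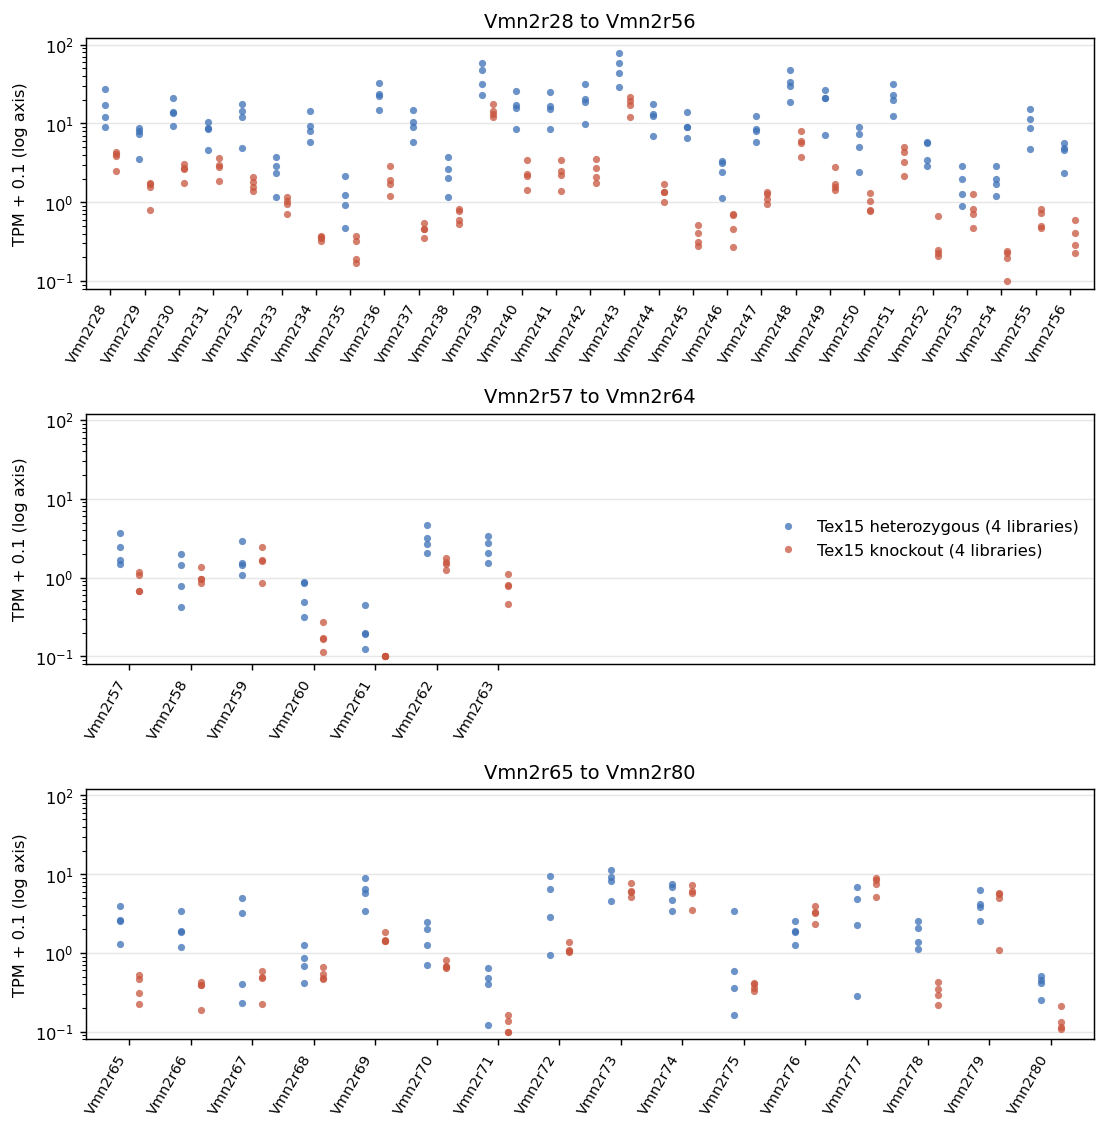
TPM plus 0.1 (log axis) of each of the 52 members in the 4 heterozygous and 4 knockout libraries, 1 point per library, by run and gene number. Knockout points lay below all heterozygous points in 28 of 29 members of the first run, 5 of 7 of the second and 5 of 16 of the third.

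Across single members, knockout libraries lay wholly below heterozygous libraries in 28 of 29 genes of the first run, 5 of 7 of the second and 5 of 16 of the third. Over all genes tested, 0.926% did so, against 28 of 29, 3 of 5 and 4 of 14 tested members of the runs. In 0 members did knockout libraries lie wholly above, against 0.473% of tested genes. The one member of the first run with overlap was Vmn2r53, at 1.17, 0.786, 2.78 and 1.89 TPM in heterozygotes and 0.373, 0.731, 0.612 and 1.19 TPM in knockout libraries. Only knockout replicate 4 of Vmn2r53 exceeded any heterozygous library.

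Within the first run, Vmn2r28 to Vmn2r52 form a set of close copies, 84.6% to 99.8% identical in coding sequence. Vmn2r53 to Vmn2r56, at the far end of the run, were 92.2% to 97.4% identical to each other and only 45.8% to 49.1% identical to the rest. Members joined at about 95% coding identity fell into a group of 13 (Vmn2r30, 32, 34, 36, 37, 40, 41, 42, 45, 47, 48, 49 and 51), a group of 10 (Vmn2r29, 31, 33, 35, 38, 39, 43, 44, 46 and 50), and the pair Vmn2r28 and Vmn2r52. This grouping was made after the values had been seen and is given without a test. All 13 of the first group fell (limma, adjusted p under 0.05), with log2 fold changes of −3.87 to −2.61. In the group of 10, 4 fell and the range was −3.14 to −1.33. The fits leaving out 1 library that kept both sexes in each genotype called all 13 of the 13. Of the 10 they called 2 without knockout replicate 2 or 3, 4 to 5 without heterozygous replicate 3 or 4 or knockout replicate 4, and 7 without heterozygous replicate 2. Vmn2r28 and Vmn2r52 both fell, as did 3 of the 4 genes Vmn2r53 to Vmn2r56, and these calls held in the same fits. Fewer members of each of these sets were called without knockout replicate 1 or heterozygous replicate 1. In those fits 1 genotype rests on a single animal of the sex compared. The group of 13 summed to 213 ± 80.9 TPM in heterozygotes and 25.9 ± 7.49 TPM in knockout libraries, and the group of 10 to 134 ± 50.7 and 40 ± 8.34 TPM.

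**Figure D3:**
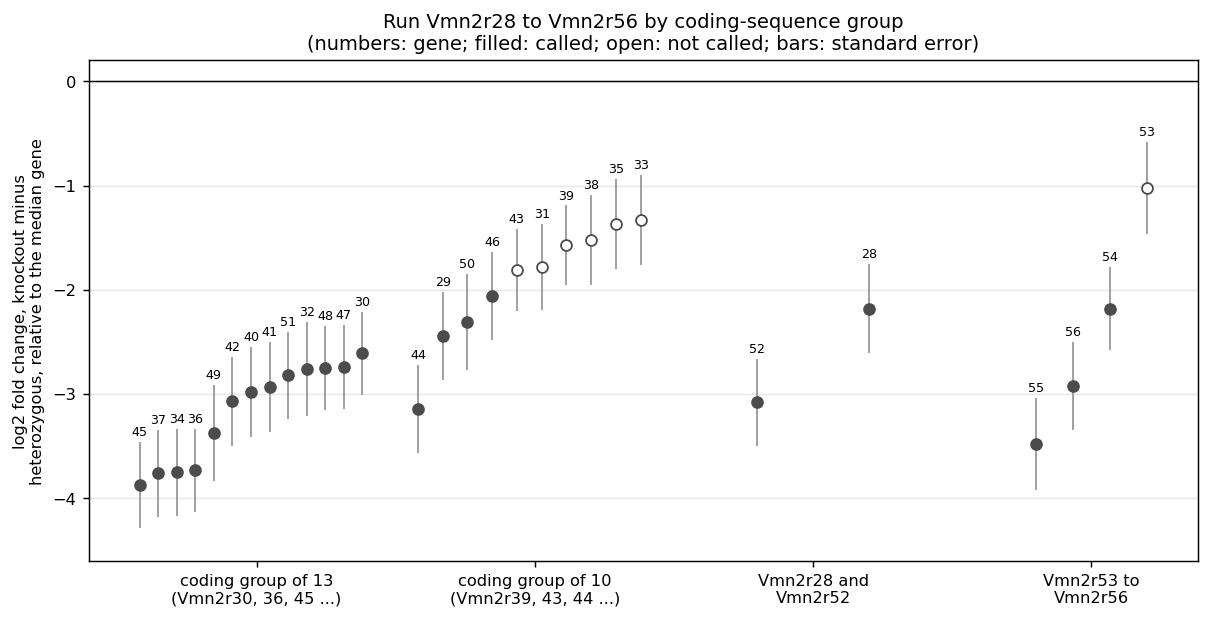
Log2 fold change of the 29 members of the first run relative to the median tested gene (vertical axis, bars are standard errors), split by coding-sequence group, with filled points for called genes. All 13 members of the larger group lay at or below −2.61, and 6 of 10 members of the other lay at −1.81 or above and were not called.

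Promoter sequence was compared because these copies differ little in their coding parts. RefSeq promoter sequences (GRCm38.p6, 250 bases before to 50 bases after each gene start) were matched for 48 of the 52 members, all but Vmn2r46, Vmn2r47, Vmn2r76 and Vmn2r77. CCCNNGGG, the core recognised by the EBF factors of olfactory and vomeronasal neurons, occurred in 19 of 23 genes of Vmn2r28 to Vmn2r52. It occurred in 0 of 4 genes of Vmn2r53 to Vmn2r56, 0 of 7 of the second run and 2 of 14 of the third (Vmn2r78 and Vmn2r79). By comparison it was present in 13.7% of all 32851 RefSeq promoters of that length and in 2.9% of the 68 other numbered Vmn2r genes matched. TAATTA, a homeodomain core, was found in 2 of 7 genes of the second run (Vmn2r58 and Vmn2r59) and in 0 genes of the other runs, against 26.5% of the other numbered Vmn2r genes and 5.3% of all promoters. The share in the second run was thus near that of the other Vmn2r genes. GCCNNNGGC, an AP-2 core, was found in 2 of 14 genes of the third run (Vmn2r66 and Vmn2r75) and in 0 of the others, against 7 of the 68 other numbered Vmn2r genes and 16.6% of all promoters. Each of the 3 letter strings reads the same on both strands, and the motifs could overlap.

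The region around this core aligned in 23 members of Vmn2r28 to Vmn2r52. Its 40 bases differed from those of Vmn2r39 at 0 to 4 positions in 21 members and at 6 and 7 positions in Vmn2r28 and Vmn2r52. RefSeq lists a second promoter for Vmn2r29, which differed at 24 positions, lacked the core and was left out of the counts of windows. The window is shown for 7 members, on the strand of the gene, with the 8 bases of the core or its altered form in capitals. They lie 43 to 125 bases before the M21 start of their gene, outside its annotated exons.
Vmn2r39 (chr7:9030841-9030880, minus strand): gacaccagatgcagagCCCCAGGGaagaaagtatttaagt
Vmn2r43 (chr7:8260724-8260763, minus strand): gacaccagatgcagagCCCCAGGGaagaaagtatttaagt
Vmn2r31 (chr7:7399785-7399824, minus strand): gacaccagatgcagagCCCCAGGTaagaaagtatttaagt
Vmn2r44 (chr7:8383396-8383435, minus strand): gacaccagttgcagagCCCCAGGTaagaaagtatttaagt
Vmn2r30 (chr7:7337652-7337691, minus strand): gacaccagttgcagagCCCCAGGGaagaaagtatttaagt
Vmn2r45 (chr7:8489118-8489157, minus strand): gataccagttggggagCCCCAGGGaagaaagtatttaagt
Vmn2r28 (chr7:5494010-5494049, minus strand): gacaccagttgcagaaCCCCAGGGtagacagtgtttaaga

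Counting positions from 1 at the 5′ end of the Vmn2r39 window, the single difference of Vmn2r31, Vmn2r33 and Vmn2r38 was G24T, the last base of the core, and Vmn2r44 carried A9T and G24T. The window of Vmn2r30, with A9T alone, was found unchanged in 10 members, of which 9 fell, with log2 fold changes of −3.37 to −1.37. The window of Vmn2r45 was shared by Vmn2r34 and Vmn2r37 (C3T, A9T, C12G and A13G), and these 3 members had the 3 lowest log2 fold changes of the 48 tested, −3.87 to −3.75. The 5 members with A at position 9 (Vmn2r31, Vmn2r33, Vmn2r38, Vmn2r39 and Vmn2r43) were all uncalled, at −1.81 to −1.33, whereas 17 of the 18 with T there fell, the exception being Vmn2r35. This position was noticed after the values had been seen, the members sharing it are also close in coding sequence, and no test was made. With T in place of G at position 24, 1 of 4 fell, and with G, 16 of 19. These counts moved with single libraries. Fewer members with T at position 9, G at position 24 or the window of Vmn2r30 were called without knockout replicate 1 or heterozygous replicate 1. In those fits 1 genotype rests on a single animal of the sex compared. Of the 5 with A at position 9, 3 were called without heterozygous replicate 2 (Vmn2r31, Vmn2r39 and Vmn2r43) and 1 without heterozygous replicate 4 or knockout replicate 4 (Vmn2r43). Without heterozygous replicate 2, 2 of the 4 with T at position 24 were called.

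The members with the lowest fold changes were Vmn2r45, Vmn2r37, Vmn2r34 and Vmn2r36, all in the group of 13. Vmn2r45 was at 8.95, 6.46, 13.7 and 9.01 TPM in heterozygous libraries and at 0.209, 0.313, 0.176 and 0.413 TPM in knockout libraries. All 4 knockout libraries lay far below the lowest heterozygous library, and the log2 fold change was −3.87 ± 0.41 (SE, limma adjusted p = 6.62e-05). Vmn2r37 was at 5.79 to 14.7 TPM against 0.255, 0.363, 0.354 and 0.441 TPM, with no overlap (−3.76 ± 0.42, limma adjusted p = 8.51e-05). Vmn2r34, 99.7% identical to Vmn2r37 in coding sequence, was at 7.93, 5.65, 14.1 and 9.19 TPM against 0.275, 0.263, 0.25 and 0.227 TPM (−3.75 ± 0.42, limma adjusted p = 8.49e-05). Its knockout libraries hardly differed from each other. Vmn2r36, at higher TPM, fell from 23.5, 14.8, 32.3 and 22 TPM to 1.09, 1.81, 1.59 and 2.8 TPM (−3.73 ± 0.40, limma adjusted p = 7.92e-05). All 4 genes were called in each of 19 settings (the fit described and its alternatives), including every fit that left out 1 library.

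Outside the close copies, Vmn2r55 fell by a similar amount. It was at 8.66, 4.66, 15.2 and 11.4 TPM in heterozygotes and 0.394, 0.713, 0.633 and 0.375 TPM in knockout libraries (−3.48 ± 0.44, limma adjusted p = 0.000419). Its neighbour Vmn2r56, the last member of the run by position, was at 4.54, 2.23, 5.57 and 4.84 TPM against 0.129, 0.492, 0.307 and 0.188 TPM (−2.92 ± 0.42, limma adjusted p = 0.00148). Vmn2r28, at the other end of the run, was at 11.9, 8.96, 27.3 and 16.9 TPM against 2.4, 4.01, 4.29 and 3.76 TPM (−2.18 ± 0.43, limma adjusted p = 0.0323). In all 3 genes the genotypes did not overlap. Vmn2r28 was called in 16 of 19 settings (lowest limma adjusted p 0.000675) and lost the call with no filter on low values (log2 fold change −2.14, limma adjusted p = 0.142). It also lost the call without knockout replicate 1 (−1.92) and without heterozygous replicate 1 (−2.44). In those fits 1 genotype rests on a single animal of the sex compared.

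The 2 members of the run with the highest TPM in heterozygotes also had the highest TPM in knockout libraries. Vmn2r43 was at 44, 29.2, 77.5 and 59.2 TPM in heterozygotes and 11.9, 17.3, 19.2 and 21.3 TPM in knockout libraries, with no overlap. Vmn2r39, 99.6% identical to it in coding sequence, was at 31.9, 22.9, 57.8 and 48.2 TPM against 12.1, 12.9, 14.5 and 17.5 TPM, again with no overlap. Neither passed the threshold: the log2 fold change was −1.81 ± 0.39 for Vmn2r43 (limma adjusted p = 0.073) and −1.57 ± 0.38 for Vmn2r39 (limma adjusted p = 0.192). Vmn2r43 was called in 9 of 19 settings (limma adjusted p 0.000968 to 0.817), among them the fits without heterozygous replicate 2 or 4 or knockout replicate 4. Vmn2r39 was called in 6 (0.00109 to 0.817), among them the fit without heterozygous replicate 2. This order rests on the authors' gene lengths: in heterozygous replicate 1, Vmn2r43 and Vmn2r39 had 2285 and 2024 recovered reads, fewer than the 4319 of Vmn2r42 and the 4123 of Vmn2r48. Together Vmn2r43 and Vmn2r39 held 24% ± 1.93 of the run's TPM in heterozygotes and 44.9% ± 2.64 in the knockout libraries (SD, n = 4).

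Other members at high TPM fell by more. Vmn2r48 went from 30, 18.7, 48.1 and 33.4 TPM to 3.61, 5.84, 5.48 and 7.86 TPM (−2.75 ± 0.40, limma adjusted p = 0.00152). Vmn2r51 went from 19.9, 12.4, 32 and 23.2 TPM to 2.03, 4.29, 3.18 and 4.89 TPM (−2.82 ± 0.42, limma adjusted p = 0.00172). Neither gene overlapped between genotypes. Both were called in 18 of 19 settings, with limma adjusted p of 1.48e-05 to 0.0144 for Vmn2r48 and 1.87e-05 to 0.0178 for Vmn2r51. Each lost the call without knockout replicate 1, with a log2 fold change of −2.63. That fit sets knockout males against heterozygous replicate 1 alone. In heterozygous libraries Vmn2r48 held 8.5% ± 0.335 of the run and Vmn2r39 10.5% ± 1.13, and in knockout libraries the shares were 7.89% ± 0.676 and 20.4% ± 2.71. Low-level members that were not called included Vmn2r33, Vmn2r35 and Vmn2r38. They averaged 2.45, 1.09 and 2.3 TPM in heterozygotes and 0.865, 0.166 and 0.578 TPM in knockout libraries.

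**Figure D4:**
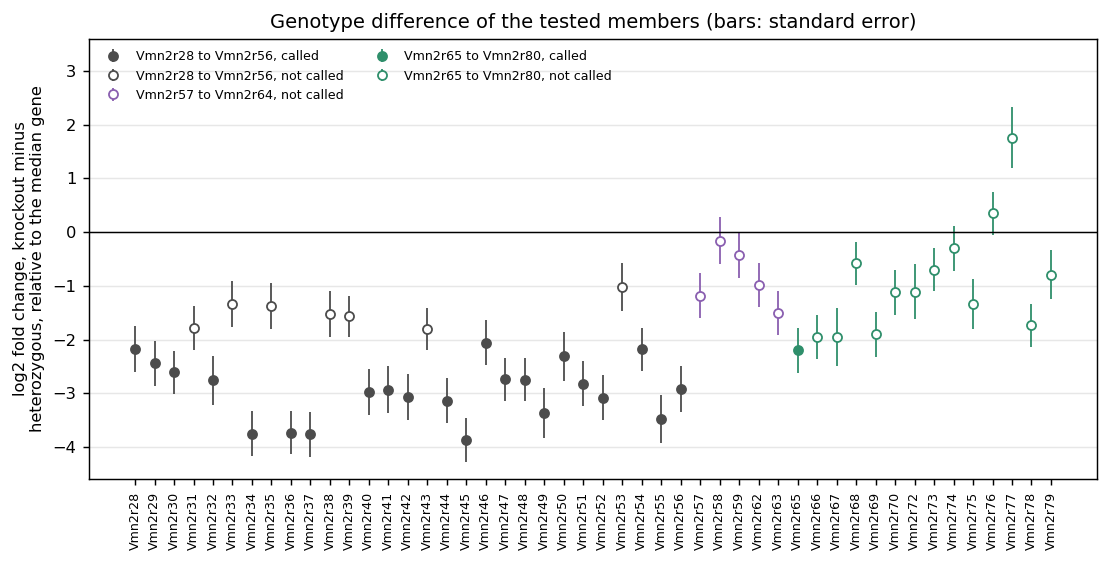
Log2 fold change (knockout minus heterozygous, relative to the median tested gene) of the 48 tested members in order of gene number, with standard errors as bars and filled points for called genes. Of the 48, 46 lay below 0, and the 2 above it were Vmn2r76 and Vmn2r77.

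Because many of these copies are near identical, reads can be ambiguous between them. The share of 150-base windows of a member's M21 transcripts found in no other annotated gene ran within the first run from 0.0% in Vmn2r47 to all windows in Vmn2r52, and was 97.7% or more throughout the third. Restricted to the 15 members of the first run with at least 50% unique windows, 12 fell and the median was −2.76. How reads matching several genes were assigned was not given in the sources used here, so values of single close copies such as Vmn2r39 and Vmn2r43 are uncertain. Exchange of reads within a group would leave its summed reads unchanged but not its summed TPM, V2R share or ratios, because the lengths fitted to its members differ (3171 bases for Vmn2r43 and 12275 for Vmn2r31). For 45 of 52 members the steps between TPM values fitted a gene length longer than that of M21, so the authors' gene models may hold sequence that these windows do not cover.

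Genes interspersed with the first run were counted by kind. Of 11 tested Vmn2r pseudogenes inside its span, 5 fell and 0 rose, with a median log2 fold change of −2.06. Of 28 other pseudogenes, 11 fell (median −1.67). Without heterozygous replicate 2 these counts were 8 and 14. They were lower without knockout replicate 1 or heterozygous replicate 1, fits in which 1 genotype rests on a single animal of the sex compared. Among 23 tested Vmn1r genes and pseudogenes, the receptors of apical neurons, 1 fell (Vmn1r69, −2.68) and the median was −0.81. Without heterozygous replicate 2, 2 of these were called lower. In the fits without heterozygous replicate 3 or 4, 1 was called higher. Vmn1r69 lost its call without heterozygous replicate 1 or knockout replicate 1. The 24 other genes had a median of −0.00, and 1 fell, AC139131.1 (−3.59), whose annotated position lies inside that of Vmn2r54. Within the span of the second run 0 of 7 tested other genes and 0 of 3 other pseudogenes were called, and within that of the third 0 of 2 Vmn2r pseudogenes (1 without heterozygous replicate 2 or 4 or knockout replicate 4). Outside the numbers 28 to 80, 14 of 59 tested Vmn2r genes fell and 6 rose, with a median of −0.82. Without knockout replicate 2 or 3 the counts were 7 lower and 6 higher. Fewer were also called lower without knockout replicate 1 or heterozygous replicate 1. Among 143 Vmn1r genes tested 9 fell and 1 rose (median −0.92), and of 9 H2-Mv genes, which basal neurons use alongside V2R genes, 1 fell (median −0.90). The following counts are over fits leaving out 1 library that kept both sexes in each genotype. Vmn1r genes called lower numbered 5 (without knockout replicate 2) to 24 (without heterozygous replicate 2), with 18 and 17 without heterozygous replicate 4 or knockout replicate 4. H2-Mv genes called lower numbered 0 without knockout replicate 2, 2 without heterozygous or knockout replicate 4, and 4 without heterozygous replicate 2. Vmn1r genes called higher numbered 0 (without knockout replicate 2 or 3) to 4 (without heterozygous replicate 3), with 3 without heterozygous replicate 4 and 2 without heterozygous replicate 2. Of 8 V2R signalling genes 0 were called (median −0.13).

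Vmn2r57 to Vmn2r64 were expressed at low levels in both genotypes. The 5 tested members had log2 fold changes of −1.51 to −0.16. Its member with the highest TPM, Vmn2r62, was at 2.6, 1.94, 4.54 and 3.1 TPM in heterozygotes and 1.41, 1.48, 1.66 and 1.14 TPM in knockout libraries (−0.99 ± 0.41, limma adjusted p = 1). Vmn2r63, at the far end of the run, was at 1.96, 1.45, 3.24 and 2.62 TPM against 0.359, 0.693, 0.709 and 1.02 TPM (−1.51 ± 0.41, limma adjusted p = 0.371). It was called in 2 of 19 settings, with median-ratio scaling (0.00651) and by limma-voom (0.0203), and its adjusted p ran from 0.00651 to 0.817. Vmn2r57, at the near end, was at 1.56, 1.4, 3.54 and 2.33 TPM against 0.577, 0.996, 0.568 and 1.08 TPM (−1.18 ± 0.42, limma adjusted p = 1). These 3 genes are 95.9% to 97.0% identical in coding sequence, and in each of them the genotypes did not overlap.

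Its other 4 members behaved less uniformly. Vmn2r59 was at 1.36, 0.99, 2.84 and 1.44 TPM in heterozygotes and 0.751, 1.51, 1.57 and 2.36 TPM in knockout libraries (−0.43 ± 0.43, limma adjusted p = 1). Vmn2r58 was at 0.674, 0.322, 1.33 and 1.87 TPM against 0.757, 0.871, 0.85 and 1.28 TPM (−0.16 ± 0.44, limma adjusted p = 1). In both the genotypes overlapped widely. Vmn2r60 and Vmn2r61 were below the level tested. Vmn2r60 was at 0.384, 0.214, 0.779 and 0.763 TPM against 0.0148, 0.173, 0.0673 and 0.0738 TPM, without overlap. Vmn2r61 had 2, 7, 17 and 6 recovered reads in heterozygous libraries and 0 in each knockout library, where 0 reads allow up to 0.0483 to 0.0597 TPM, a limit that covers counting error only. Its heterozygous levels of 0.0235 to 0.356 TPM reach below that limit.

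Vmn2r65 to Vmn2r80 spanned log2 fold changes from −2.20 to 1.76 among 14 tested members. The first member by position, Vmn2r65, was the only one called. It was at 2.49, 1.2, 3.9 and 2.43 TPM in heterozygotes and 0.123, 0.367, 0.214 and 0.433 TPM in knockout libraries, without overlap (−2.20 ± 0.42, limma adjusted p = 0.0264). It was called in 14 of 19 settings (lowest limma adjusted p 0.00234). It lost the call without knockout replicate 3 (log2 fold change −2.12, limma adjusted p = 0.0581), and with no filter or with the replicate number as a block (0.0781 in each). It also lost the call without heterozygous replicate 1 (−2.10) and without knockout replicate 1 (−2.31). In those fits 1 genotype rests on a single animal of the sex compared. Vmn2r69 was at 5.73, 3.3, 8.79 and 6.43 TPM against 1.35, 1.34, 1.33 and 1.76 TPM, also without overlap (−1.90 ± 0.42, limma adjusted p = 0.0847). It was called in 7 of 19 settings (limma adjusted p 0.00166 to 0.746), among them the fits without heterozygous replicate 2 or knockout replicate 4. Vmn2r66 and Vmn2r78, chosen after their values were seen, likewise did not overlap, at −1.96 ± 0.41 and −1.73 ± 0.40 (limma adjusted p = 0.0616 and 0.14). The number called lower in this run was 1, and it was 0 without knockout replicate 3, 5 without heterozygous replicate 2, and 3 without heterozygous replicate 4 or knockout replicate 4.

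Between these lay members with little difference. Vmn2r73, the member of the run with the highest TPM, was at 11.1, 4.43, 9.1 and 8.07 TPM in heterozygotes and 5.91, 6.01, 4.98 and 7.7 TPM in knockout libraries (−0.70 ± 0.40, limma adjusted p = 1). Vmn2r74 was at 4.62, 3.29, 7.42 and 6.81 TPM against 3.41, 6.01, 5.72 and 7.2 TPM (−0.30 ± 0.42, limma adjusted p = 1). In both genes all 4 knockout libraries lay inside the heterozygous range. The value of Vmn2r73 was −0.14 without heterozygous replicate 1 and −1.26 without knockout replicate 1, and that of Vmn2r74 was −0.55 and −0.05. The first fit sets knockout replicate 1 alone against heterozygous females, the second knockout males against heterozygous replicate 1 alone. The 2 members above the median gene were Vmn2r76 and Vmn2r77. Vmn2r76 was at 1.73, 1.16, 2.42 and 1.8 TPM in heterozygotes and 2.24, 3.1, 3.89 and 3.21 TPM in knockout libraries (0.35 ± 0.40, limma adjusted p = 1), with overlap through knockout replicate 1 only. Vmn2r77 was at 0.188, 2.2, 6.71 and 4.68 TPM against 5.1, 8.26, 8.76 and 7.38 TPM (1.76 ± 0.57, limma adjusted p = 0.238). Heterozygous replicate 3 of Vmn2r77 exceeded knockout replicate 1, and heterozygous replicate 1 was far below the other 3. Without heterozygous replicate 1 the log2 fold change of Vmn2r77 was 0.34, and without knockout replicate 1 it was 3.19. Each of these again rests on a single animal of 1 genotype. Without heterozygous replicates 1 and 2 and with genotype alone in the model it was 0.53 (limma adjusted p = 0.964). Its size thus rested largely on single libraries. Vmn2r77 was called higher in 4 of 19 settings, 1 of them the fit without knockout replicate 1. The other 3 were the fits without heterozygous replicate 3 (limma adjusted p = 0.0399), without heterozygous replicate 4 (0.00765) and with the replicate number as a block (0.0458).

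**Figure D5:**
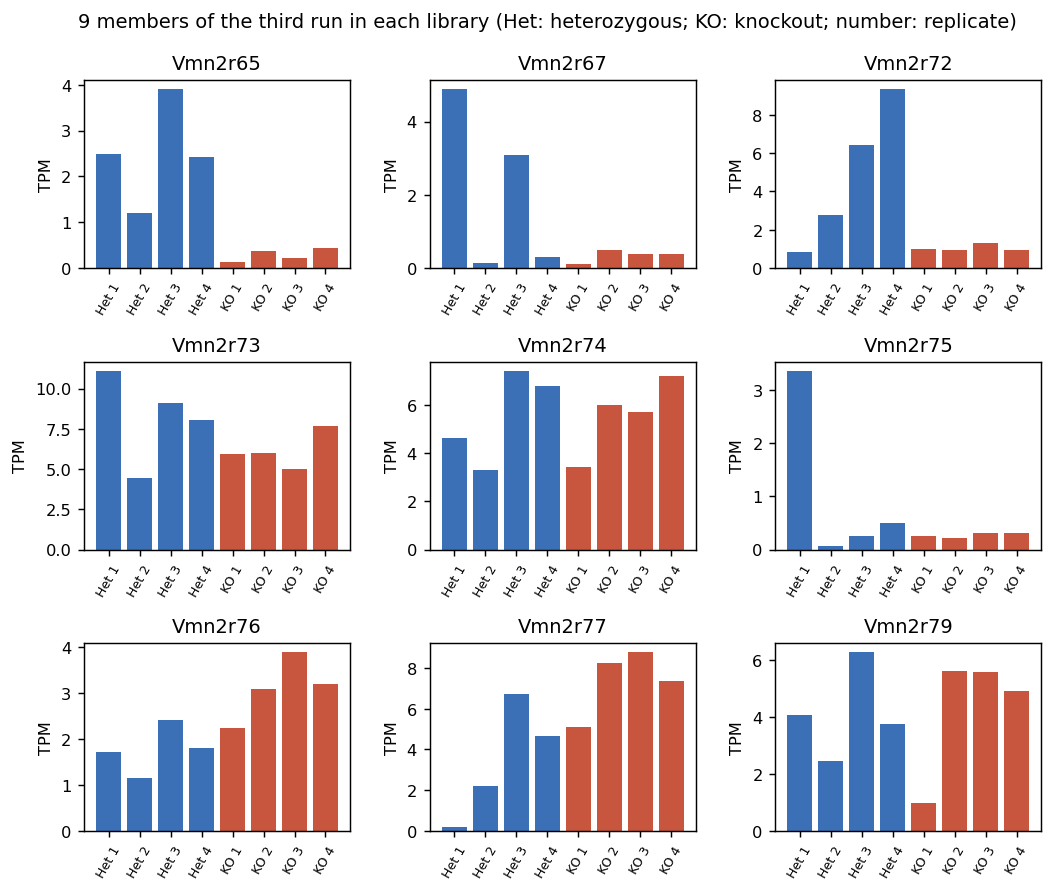
TPM of 9 members of the third run in each library (bars from 0), heterozygous replicates 1 to 4 and then knockout replicates 1 to 4. Vmn2r65 separated the genotypes, Vmn2r73 and Vmn2r74 did not, and Vmn2r67, Vmn2r72, Vmn2r75 and Vmn2r77 varied mostly between heterozygous animals.

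Several members of this run spread widely between heterozygous animals. Vmn2r67, Vmn2r72 and Vmn2r75 were chosen for this after their values were seen. Vmn2r67 was at 4.88, 0.132, 3.09 and 0.309 TPM in heterozygous libraries and 0.123 to 0.483 TPM in knockout libraries. Heterozygous replicate 1 had 3.36 TPM of Vmn2r75, against 0.0648 to 0.499 in the other heterozygous libraries and 0.226 to 0.318 in knockout libraries. Vmn2r72 was at 0.842, 2.79, 6.39 and 9.32 TPM in heterozygotes and 0.928 to 1.3 TPM in knockout libraries. Heterozygous replicate 1 was thus the highest of its group in Vmn2r67, Vmn2r73 and Vmn2r75 and the lowest in Vmn2r71, Vmn2r72 and Vmn2r77. It was the only male in its group, and it and replicate 2 bore animal numbers of an earlier series than the other 6 animals, so sex, series and animal cannot be told apart for it.

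Vmn2r78 and Vmn2r79, adjacent at the end of the run on chromosome 7, were 96.0% identical in coding sequence and both held the CCCNNGGG core. Vmn2r78 was at 1.26, 1.03, 2.46 and 1.95 TPM in heterozygotes and 0.121, 0.192, 0.249 and 0.329 TPM in knockout libraries. Vmn2r79 was at 4.07, 2.46, 6.26 and 3.76 TPM against 0.991, 5.61, 5.57 and 4.92 TPM (−0.79 ± 0.46, limma adjusted p = 1). In Vmn2r79 knockout replicate 1 lay below every other library, and the other 3 knockout libraries lay inside the heterozygous range. The group means of Vmn2r79 were 4.13 TPM in heterozygotes and 4.27 TPM in knockouts, and its log2 fold change was −0.10 without knockout replicate 1, −1.49 without heterozygous replicate 1 and −0.24 with genotype alone in the model. The −0.10 sets knockout males against heterozygous replicate 1 alone, and the −1.49 sets knockout replicate 1 alone against heterozygous females. The difference between these 2 genes was not tested.

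The untested members of the run were Vmn2r71 and Vmn2r80. Vmn2r71 had 5, 58, 47 and 83 recovered reads in heterozygous and 0, 0, 9 and 5 in knockout libraries, at levels of 0.023 to 0.542 and 0 to 0.0637 TPM. The groups overlapped through heterozygous replicate 1. Vmn2r80, on chromosome 10, was at 0.349, 0.15, 0.319 and 0.415 TPM against 0.111, 0.0322, 0.0145 and 0.00723 TPM, without overlap. Without Vmn2r80 the run had 15 members, 4 of them without overlap, and its count of called genes and its median were unchanged at 1 and −1.11.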

How the data were processed

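The authors deposited a single table of TPM values with 1 column per library, each summing to 1000000. Per the submitters' processing notes, Trim Galore 0.6.5, cutadapt 5.1, STAR 2.7.11b and deepTools 3.5.5 were used with mouse build mm10/GRCm38. The counting program was not given in the sources used here. Per the labels' protocols, libraries were polyA-selected and directional, sequenced as paired reads of 150 bases. All 8 columns were used.

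The 20305 genes whose mean reached 0.5 TPM were fitted on the log2(TPM + 0.5) scale by limma 3.58.1 (R 4.3.3, trended eBayes). The model held genotype and sex. Its genotype coefficient is the mean of the difference in males and that in females. Heterozygous replicate 1 is the only heterozygote in the former, and knockout replicate 1 the only knockout in the latter. Benjamini-Hochberg adjustment ran over all tested genes, and an adjusted p under 0.05 was called. Tests were of the fitted coefficient. Printed fold changes are relative to the median gene of the same fit, whose shift was subtracted. This shift was 0.19 in the fit described. Among the alternatives it ran from −0.19 (later animal series alone) to 0.46 (without knockout replicate 1). The 0.5 TPM added understates changes of low genes. Run sums, shares and effective numbers are descriptions without p-values.

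TPM keeps no depth, so reads were recovered from steps between low values (97.4% to 97.8% whole within 0.05 reads; 94.9% of genes). For a gene of 3 kb, 3 reads were worth 0.0611 to 0.109 TPM, counting error only. Fitting was tested on simulated data. Coding sequences were aligned with MAFFT 7.526.

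The members, lists and tests were chosen with earlier results of these data known. Genes named were, per run, the 5 highest by TPM, the 5 largest called non-overlapping changes, those not below the median gene, the untested ones with the highest levels and both end members; others were named after their values were seen. Alternatives were other pseudocounts, filters, thresholds, scalings, designs and subsets of members and animals, and leaving out each library; limma-voom on recovered reads, scaling to Vmn2r1 to Vmn2r7 and leaving out Vmn2r80 were added after seeing the data.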

Additional observations from a re-analysis of the deposited data

Results flagged for a closer look

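A sample far from the other 3 of its genotype was sought in 128 groups of 4 libraries (52 members in each genotype and the run totals, shares, effective numbers and ratios). A library counted as far when its gap to the nearest other exceeded the 95% critical share of the group's range in Dixon's test. This picked out 8 groups, 6 of them among 104 groups of single members, and chance picks out about 1 in 20.

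In knockout libraries, Vmn2r52 stood at 0.574 TPM in replicate 4 against 0.11 to 0.149 in the others. Vmn2r69 stood at 1.76 TPM in replicate 4 against 1.33 to 1.35, and Vmn2r72 at 1.3 TPM in replicate 3 against 0.928 to 0.978. Replicate 1, the female knockout, was low in Vmn2r66 (0.0909 TPM against 0.29 to 0.325), in Vmn2r79 (0.991 TPM against 4.92 to 5.61) and in the sum of Vmn2r65 to Vmn2r80 (21.8 TPM against 34 to 36.1).

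Among heterozygous libraries, replicate 1, the male, was high in Vmn2r75 (3.36 TPM against 0.0648 to 0.499). Its log2 ratio of the summed Vmn2r28 to Vmn2r56 over the summed Vmn2r57 to Vmn2r64 was 5.37, against 5.04 to 5.09 in the others.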

How the results depend on the processing

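The count of Vmn2r28 to Vmn2r56 called lower was 17 to 27 under other pseudocounts, filters, scalings and designs and 18 at an adjusted p under 0.01. It was 12 of 15 with unique members only, and 20 to 25 over fits leaving out 1 library that kept both sexes in each genotype. It was lower without knockout replicate 1 or heterozygous replicate 1, where 1 genotype rests on a single animal of the sex compared. That of Vmn2r57 to Vmn2r64 became 1 with median-ratio scaling and with limma-voom and stayed at 0 in each fit leaving out 1 library. For Vmn2r65 to Vmn2r80, 1 gene was called lower; the count was 0 without the filter and at an adjusted p under 0.01, and 4 with median-ratio scaling, genotype alone, scaling to Vmn2r1 to Vmn2r7 and limma-voom (median −1.52). It was 5 in the 6 animals of the later number series (genotype alone) and 0 to 5 leaving out 1 library, with 0 to 1 called higher. With the replicate number as a block, 21 of the first run and 0 of the third were lower and 1 of the third was higher; of 23 members called lower, 20 stayed called. Same-numbered animals' deviations correlated at −0.06, 0.03, 0.10 and −0.00, against −0.17 to 0.19 between unlike-numbered animals. These values cannot decide whether the numbers pair animals. With unique members only, the genotype difference in V2R share was −12.41 points in the first run and −0.29 in the second, that in effective number of the first run −1.66 (−6.95 over all its members), and those in the log2 ratio of the first run to the second −1.82 and to the third −2.25. Leaving Vmn2r1 to Vmn2r7 out of the denominator gave −37.51 points. Leaving members out of the numerator or the denominator changes a share by arithmetic, and no other cause of these shifts was tested. Over 23 named and tested members, 375 values under an alternative kept direction and side of the threshold, 10 lost and 28 gained the call, and 0 reversed. Depth limits values near or below 0.1 TPM.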
